A study of Mus musculus with 8 samples.

Results

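The transcripts described here are 10 genes that set up the oligodendrocyte lineage or mark its stages, chosen by name: the transcription factors Sox10, Sox8, Olig1, Olig2, Nkx2-2, Myrf and Tcf7l2, and the stage genes Gpr17, Bcas1 and Enpp6. They are 10 of the 17143 genes counted in single cells of the mouse hippocampus, and all 10 were detected. Oligodendrocytes wrap axons in myelin and arise from precursor cells that keep dividing in the adult brain. Olig2 is needed to specify the lineage, and Sox10 keeps its identity. Nkx2-2, Sox8 and Olig1 act with them, and Myrf switches on myelin genes once a cell leaves the cell cycle. Between these states lie brief committed and newly formed stages, at which Gpr17, Tcf7l2, Bcas1 and Enpp6 are known to peak.

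Hippocampi of 8 wild-type (a/a) offspring aged 5 months were dissociated, frozen as cells and profiled on the 10x Chromium, which counts transcript molecules by unique molecular identifiers (UMIs). The Pb group held 2 females (F1, F2) and 2 males (M1, M2) whose dams drank 32 ppm Pb-acetate from 2 weeks before mating through gestation and lactation; the offspring had Pb-free water after weaning. The control group held 2 females and 2 males whose dams received no Pb-acetate. From each litter 1 male and 1 female were kept, but the labels do not tie a mouse to a litter, so p-values treat as independent some mice that may share a dam.

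Of 5258 deposited cells 5175 were kept, 3555 from Pb and 1620 from control mice, with 211 to 1157 cells and 1749079 to 8508064 UMIs per mouse. Among the kept cells, 91 carried a barcode found in more than 1 mouse, up to 8 mice for a single barcode, and 14 of the 91 lay in the lineage. In 3 libraries (Pb F2, control F1 and control M1) transcripts of the myelin gene Mbp stood high in cells outside the lineage, at 3683 CPM (UMIs of a gene scaled by all UMIs of the same cells) in Pb F2 against 1639 to 2174 CPM in the other Pb mice, and at 5212 and 5785 CPM in control F1 and M1 against 1657 and 2004 CPM in control F2 and M2. These libraries were set apart after seeing the data, for high Bcas1 as well as high Mbp. The exposure comparisons below were also made without the cells with a shared barcode and without these libraries.

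The genes lie on 7 chromosomes of GRCm38 (GENCODE vM21), and all are protein-coding. Olig2 (chr16:91225457-91228677) and Olig1 (chr16:91269772-91271933) are neighbours on the plus strand, 41094 bases apart. Tcf7l2 (chr19:55741820-55933654) and Enpp6 (chr8:46986887-47096762) also lie on the plus strand. Sox10 (chr15:79154908-79165240), Sox8 (chr17:25565892-25570686), Myrf (chr19:10208272-10240748), Nkx2-2 (chr2:147177546-147194243) and Bcas1 (chr2:170346991-170427845) lie on the minus strand.

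Promoter windows from RefSeq (GRCm38.p6) were used for 5 of the 10 genes: Nkx2-2, Enpp6, Olig2, Sox8 and Tcf7l2, the last with 2 windows. Gpr17 was left out of this search beforehand, so whether it has a window or a motif was not tested. Each window of 300 bases, 250 before and 50 after the start, was searched on both strands for the SOX core AACAAT, the E-box CAGCTG bound by OLIG-type proteins, and CTTTGAT, the TCF/LEF core; none of these overlaps another. The SOX core was present once each in the Enpp6 window at position -220, the Olig2 window at -67 and the first Tcf7l2 window at -102, and in 10.6% of all 32544 promoter windows. No window of the 5 genes held the E-box, present in 16.4% of all windows, or the TCF/LEF core, present in 3.73%. The 250 bases before the start are shown for Enpp6 (chr8:46986637-46986886, plus strand) and Tcf7l2 (chr19:55741560-55741809, plus strand), which stood out in the committed class below. Capitals mark the SOX core, read on the opposite strand in Tcf7l2. A match is a run of letters and was not tested as a binding site.
Enpp6: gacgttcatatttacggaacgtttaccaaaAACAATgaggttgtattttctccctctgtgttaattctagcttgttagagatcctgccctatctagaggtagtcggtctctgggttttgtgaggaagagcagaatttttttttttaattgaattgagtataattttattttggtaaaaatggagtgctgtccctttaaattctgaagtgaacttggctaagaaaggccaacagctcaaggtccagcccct
Tcf7l2: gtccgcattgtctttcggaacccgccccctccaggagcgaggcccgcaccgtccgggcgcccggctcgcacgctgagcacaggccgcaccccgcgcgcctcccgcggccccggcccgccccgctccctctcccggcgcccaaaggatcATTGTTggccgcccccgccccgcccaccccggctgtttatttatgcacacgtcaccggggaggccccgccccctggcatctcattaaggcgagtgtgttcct

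Cells were clustered with the 10 genes left out, so that their levels did not shape the classes, and classes were named from other markers. The lineage held 1445 cells. Oligodendrocyte precursor-like cells (157 cells, median 8871 UMIs) were led by C1ql1, Cacng4, Lhfpl3 and Pdgfra, the receptor for the growth factor that drives precursor division. Committed precursor-like cells (12 cells in 6 mice, median 15303 UMIs) were led by 1810041L15Rik, 9530059O14Rik and Brca1, followed by Fyn and Rnd2, which are among the naming markers. Cluster 23 (14 cells in 6 mice) expressed myelin genes but stayed unnamed because a committed-stage marker was among its leading genes. Oligodendrocyte-like cells (1262 cells, median 6966 UMIs) were led in cluster 0 (970 cells) by Il33, Ptgds and Opalin and in cluster 6 (221 cells) by Anln, Klk6, Serpinb1a and Hapln2, while cluster 14 (71 cells) came wholly from control M2. Levels between classes come from the cells that were clustered and are given as descriptions, with no test.

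Precursor-like cells held more Olig1, Olig2, Nkx2-2, Tcf7l2 and Gpr17 RNA than Oligodendrocyte-like cells of the same mouse, and Myrf and Enpp6 ran the other way. The lineage factor Sox10 and its relative Sox8 stood at about the same level at both stages. In the 6 mice with at least 5 precursor-like cells, 5 of the 10 genes (Olig1, Olig2, Nkx2-2, Tcf7l2 and Gpr17) were higher in precursor-like than in Oligodendrocyte-like cells in 6 of 6 mice, 2 genes (Myrf and Enpp6) were lower in 6 of 6, and Sox10, Sox8 and Bcas1 were higher in 3, 2 and 2 of the 6 mice.

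Olig2, the bHLH factor that specifies the lineage, had 965, 665, 1049 and 1004 CPM in precursor-like cells of Pb F1, F2, M1 and M2, and 1077 and 403 CPM in those of control F2 and M2. The mean was 861 ± 269 CPM in precursor-like and 236 ± 30.1 CPM in Oligodendrocyte-like cells (SD, n = 6 mice), a ratio of 3.64. Each mouse's precursor-like value lay above its Oligodendrocyte-like value, with the smallest step in control M2. Olig1, the neighbouring bHLH gene, averaged 3476 ± 944 CPM in precursor-like and 1414 ± 168 CPM in Oligodendrocyte-like cells (SD, n = 6), a ratio of 2.46. Control M2 was the lowest precursor-like sample for Olig1 as well, at 2140 CPM. Nkx2-2, a homeodomain factor, averaged 90.0 ± 30.4 CPM in precursor-like and 35.3 ± 3.93 CPM in Oligodendrocyte-like cells (SD, n = 6).

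Sox10, the SoxE factor that keeps lineage identity and binds myelin genes, averaged 310 ± 69.9 CPM in precursor-like and 309 ± 49.3 CPM in Oligodendrocyte-like cells (SD, n = 6), a ratio of 1.00. Sox8, a SoxE relative with overlapping function, averaged 175 ± 46.4 CPM in precursor-like and 179 ± 35.2 CPM in Oligodendrocyte-like cells. For these 2 genes the samples of both stages overlapped over most of their range. Myrf, which is cleaved from a membrane to enter the nucleus and activate myelin genes, averaged 48.7 ± 24.1 CPM in precursor-like and 245 ± 12.4 CPM in Oligodendrocyte-like cells, a ratio of 0.199. The Oligodendrocyte-like values of Myrf were the tightest of the 10 genes relative to their mean, between 222 and 259 CPM in all 8 mice.

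**Figure D1:**
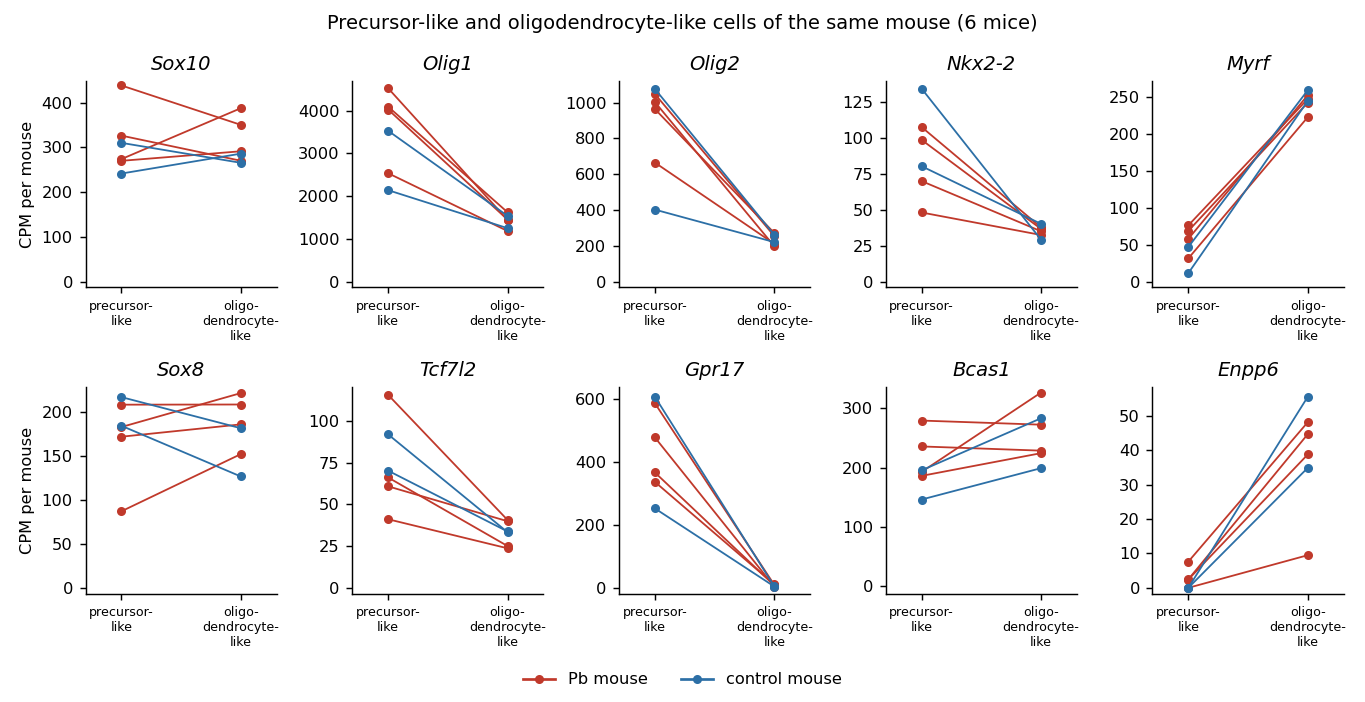
CPM of each of the 10 genes (y axis, linear, 1 panel per gene) in precursor-like and Oligodendrocyte-like cells; each line joins the 2 values of 1 mouse, and the 6 mice with at least 5 precursor-like cells are shown. Lines for Olig1, Olig2, Nkx2-2, Tcf7l2 and Gpr17 are higher at the precursor-like end in 6 of 6 mice, those for Myrf and Enpp6 lower in 6 of 6, and those for Sox10, Sox8 and Bcas1 mixed.

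Gpr17 (chr18:31942997-31949636, minus strand), a G protein-coupled receptor that holds back maturation, had 368, 338, 588 and 479 CPM in precursor-like cells of the 4 Pb mice in the order above, and 609 and 253 CPM in those of control F2 and M2. It averaged 439 ± 143 CPM in precursor-like cells against 6.73 ± 2.99 CPM in Oligodendrocyte-like cells of the same mice (SD, n = 6), and no sample of either stage reached the range of the other. A Gpr17 UMI was found in 75.8% of precursor-like cells and in 4.91% of Oligodendrocyte-like cells, against 3.10% of Microglia-like cells (median 5221 UMIs), which should lack the gene. With every cell thinned to 2000 UMIs the shares were 48.3%, 1.19% and 1.34%, so the Oligodendrocyte-like share stood at the background level. Within precursor-like cells the count per cell was uneven, with a median of 3 and a maximum of 43 Gpr17 UMIs.

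The 12 committed precursor-like cells held high levels of all 4 genes known for the committed and newly formed stages. Their pooled Mbp was 15933 CPM, against 2238 ± 1019 CPM in precursor-like (SD, n = 6) and 11174 ± 1879 CPM in Oligodendrocyte-like cells (SD, n = 8). Whether the class holds newly formed oligodendrocytes was not tested. Pooled over the 12 cells, Enpp6, a choline-specific phosphodiesterase, reached 753 CPM. It stood at 2.08 ± 2.96 CPM in precursor-like cells (SD, n = 6) and 38.3 ± 14.1 CPM in Oligodendrocyte-like cells (SD, n = 8). Each of the 12 cells had an Enpp6 UMI, with a median of 6.5 and a range of 1 to 34. In precursor-like cells 1.91% had an Enpp6 UMI, against 1.24% in Microglia-like cells, and 0.662% against 0.712% after thinning, so Enpp6 was not detectable above background there.

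Tcf7l2, an HMG-box effector of Wnt signalling, reached 930 CPM in committed precursor-like cells, against 74.4 ± 26.1 CPM in precursor-like (SD, n = 6) and 32.4 ± 7.45 CPM in Oligodendrocyte-like cells (SD, n = 8). Bcas1, found in early myelinating cells, reached 1362 CPM in committed precursor-like cells and stood at 206 ± 45.8 CPM in precursor-like and 279 ± 65.1 CPM in Oligodendrocyte-like cells (SD, n = 6 and 8). Gpr17 reached 1329 CPM there. Sox10 (557 CPM), Sox8 (262 CPM) and Nkx2-2 (124 CPM) were also at their highest there, so 7 of the 10 genes had their highest level of any class in these few cells, while Olig1 (904 CPM) and Olig2 (295 CPM) lay below their precursor-like means and Myrf (282 CPM) lay above its own.

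These committed values rest on few cells of unequal depth. Of the 12 cells, 5 had fewer than 5000 UMIs, and the range ran from 1783 to 30538 UMIs. The 7 deeper cells supplied 141 of the 142 Tcf7l2 UMIs, 194 of the 203 Gpr17 UMIs, 195 of the 208 Bcas1 UMIs and 105 of the 115 Enpp6 UMIs. Called doublets had been removed, and whether pairs captured together remain among the deep cells was not tested. With the 10 genes allowed among the variable genes the class grew to 25 cells, and at a clustering resolution of 0.5 it was not separated.

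Cluster 23 differed from the committed class in these genes although both expressed myelin transcripts. Pooled over its 14 cells, cluster 23 had 2070.5 CPM of Olig1 and 306 CPM of Myrf, but 22.4 CPM of Enpp6, 44.8 CPM of Tcf7l2 and 82.2 CPM of Gpr17. Its median depth was 18005 UMIs per cell, against 6966 UMIs in Oligodendrocyte-like cells, and whether its cells are pairs captured together was not tested.

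**Figure D2:**
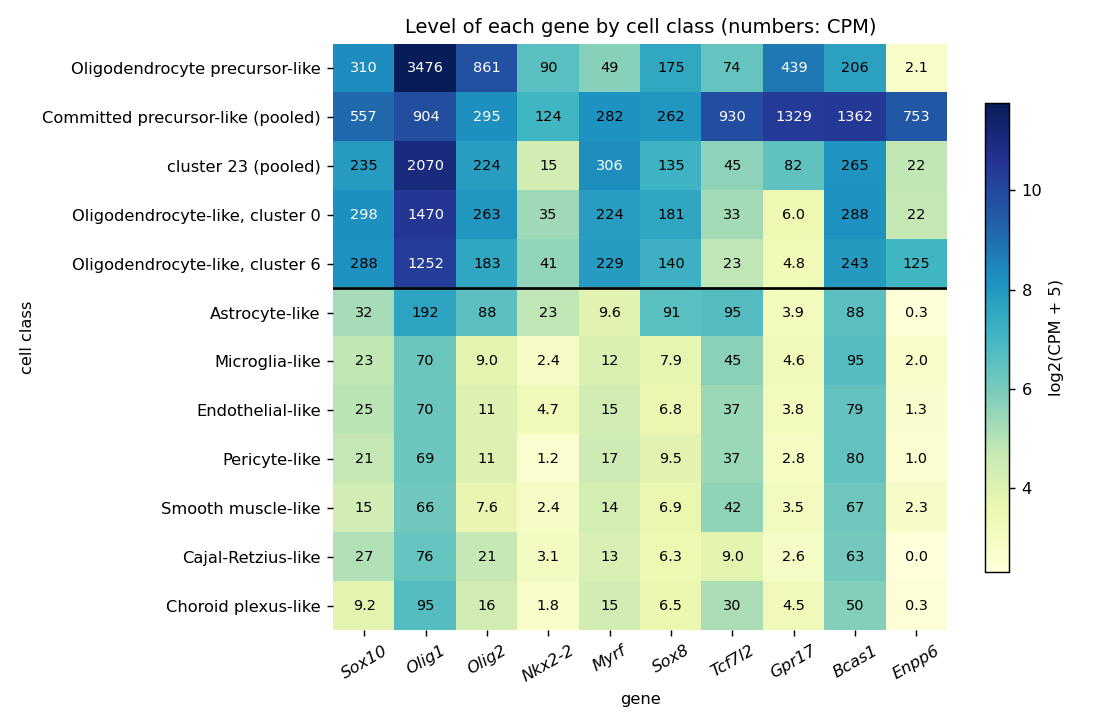
Level of each of the 10 genes (columns) by cell class (rows), coloured by log2(CPM + 5) with CPM printed in each square; values are means over mice, except committed precursor-like cells and cluster 23, which are pooled over cells. Rows above the line are the lineage, where Enpp6 and Tcf7l2 stand out in the committed class (753 and 930 CPM); cluster 14, from 1 mouse, is not drawn.

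Enpp6 also separated the Oligodendrocyte-like clusters. In cluster 6 it had 126, 51.1, 136 and 130 CPM in Pb F1, F2, M1 and M2, and 107, 102, 147 and 197 CPM in control F1, F2, M1 and M2. In cluster 0 it had 9.27, 5.89, 16.1 and 18.9 CPM in the Pb mice and 12.1, 10.7, 15.2 and 87.2 CPM in the control mice, the last from 4 UMIs in 9 cells. Cluster 6 was higher in 8 of 8 mice, at 125 ± 41.6 CPM against 21.9 ± 26.7 CPM in cluster 0 (SD, n = 8), and 114 ± 31.9 CPM against 12.6 ± 4.46 CPM without control M2 (SD, n = 7).

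The other genes differed less between these clusters. Olig2 was lower in cluster 6 in 8 of 8 mice, at 183 ± 31.3 CPM against 263 ± 30.9 CPM in cluster 0. Olig1 and Tcf7l2 were higher in cluster 6 in 1 of 8 mice each. Sox10 averaged 288 ± 39.3 CPM in cluster 6 and 298 ± 68.9 CPM in cluster 0, within the spread of the mice. Cluster 6 cells were deeper, with a median of 9275 UMIs against 6520 UMIs. Thinned to 2000 UMIs, 21.7% of cluster 6 cells and 2.28% of cluster 0 cells had an Enpp6 UMI.

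**Figure D3:**
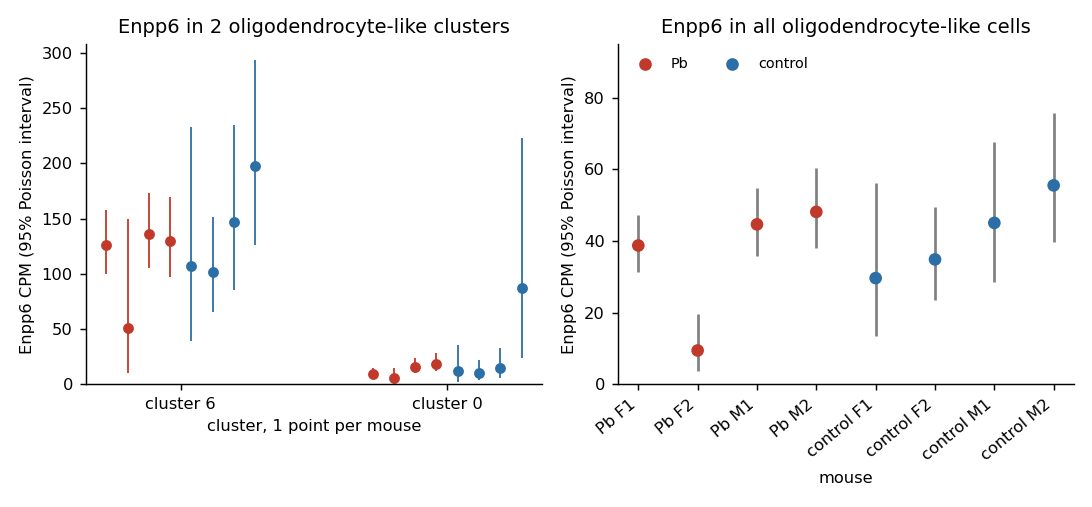
Enpp6 CPM per mouse with exact 95% Poisson intervals, which cover counting error only: in cluster 6 and cluster 0 (left), and in all Oligodendrocyte-like cells by mouse (right); red is Pb and blue is control. Cluster 6 lies above cluster 0 in 8 of 8 mice, and over all Oligodendrocyte-like cells Pb F2 is lowest at 9.49 CPM.

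Most UMIs of 9 of the 10 genes were found in the lineage, which held 27.9% of the cells. The lineage share of a gene's UMIs was 61.1% for Bcas1 (67.9% without the 3 libraries set apart for high Bcas1 and Mbp) and 32.5% for Tcf7l2. It ran from 84.5% for Sox10 to 91.0% for Enpp6 in the other 8 genes. Of Gpr17 UMIs, 60.2% were in precursor-like and 19.4% in the 12 committed precursor-like cells. Of Enpp6 UMIs, 21.1% were in the 12 committed precursor-like cells and 68.3% in Oligodendrocyte-like cells.

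Outside the lineage, Olig2 and Sox8 were found in Astrocyte-like cells above the level in Microglia-like cells. Olig2 averaged 87.7 ± 33.0 CPM in Astrocyte-like and 9.03 ± 7.12 CPM in Microglia-like cells, and Sox8 91.2 ± 34.6 CPM in Astrocyte-like and 7.88 ± 4.94 CPM in Microglia-like cells (SD, n = 8), each higher in 8 of 8 mice. Astrocyte-like cells were shallower (median 3059 UMIs), and thinned to 2000 UMIs 14.3% of them and 1.98% of Microglia-like cells had an Olig2 UMI. Olig1 was higher in Astrocyte-like cells in 7 of 8 mice, at 192 ± 76.6 CPM against 70.5 ± 27.1 CPM.

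Tcf7l2 was the least lineage-bound of the 10 genes. It averaged 95.2 ± 51.3 CPM in Astrocyte-like and 45.2 ± 8.69 CPM in Microglia-like cells (SD, n = 8), against 32.4 ± 7.45 CPM in Oligodendrocyte-like cells. In Endothelial-like cells it averaged 37.3 ± 6.77 CPM (SD, n = 8). Microglia-like cells were above Cajal-Retzius-like cells in 7 of 7 mice, at 43.9 ± 8.50 CPM against 9.04 ± 11.9 CPM.

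Bcas1 in other cells was high in the 3 libraries with high Mbp, which were set apart with both genes in view. In cells outside the lineage it had 58.3, 118, 52.8 and 45.8 CPM in Pb F1, F2, M1 and M2, and 178, 43.4, 140 and 56.3 CPM in control F1, F2, M1 and M2. Pb F2, control F1 and control M1 were high for both Bcas1 and Mbp and were chosen for that. Lower values of these 2 genes without them follow from the choice. Microglia-like cells held Bcas1 at 34.2% and Mbp at 29.6% of the Oligodendrocyte-like mean (24.3% and 19.9% without these 3 libraries), against 3.76% to 7.34% for Sox10, Olig1, Olig2, Nkx2-2, Myrf, Sox8 and Enpp6.

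**Figure D4:**
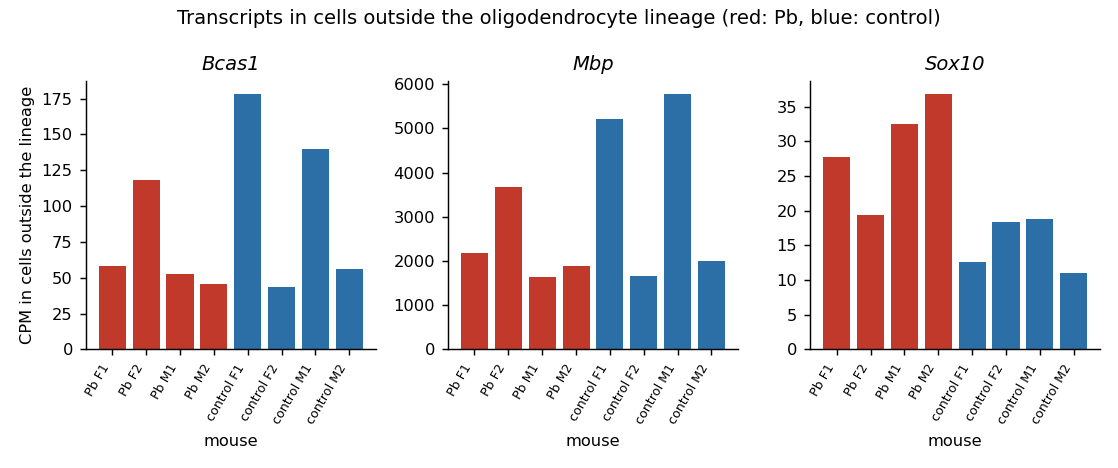
CPM of Bcas1, Mbp and Sox10 in all cells outside the lineage, 1 bar per mouse, Pb in red and control in blue (linear axes from 0). Bcas1 and Mbp are high in Pb F2, control F1 and control M1, and the lowest Pb value of Sox10 (19.3 CPM) is just above the highest control value (18.9 CPM). The share of all genes with such a gap between the groups was not computed for these cells.

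Across the 25 clusters, the 10 genes resembled each other to different degrees. Olig1 and Olig2 had the closest levels of any pair of the 10, with Pearson r = 0.947 for log2(CPM + 5), and Tcf7l2 and Myrf the least, with r = 0.191. Genes outside the 10 that reached 50 CPM in at least 1 cluster were also ranked. Of these, the most like was Gjc3 for Sox10 (r = 0.919) and Gpd1 for Olig1 (r = 0.937) and Olig2 (r = 0.909). For Nkx2-2 it was Tbc1d7 (r = 0.884). It was Tubb4a for Myrf (r = 0.963), Phyhipl for Sox8 (r = 0.9498), Zfp516 for Tcf7l2 (r = 0.838), 5730559C18Rik for Gpr17 (r = 0.921), Sirt2 for Bcas1 (r = 0.965) and Strn for Enpp6 (r = 0.878). Clusters share libraries and differ in depth, and these correlations describe the clusters only.

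The study compared Pb with control mice, and in the sum of all cells most of the 10 genes had a higher level in Pb mice, by values that did not pass the adjusted threshold. With edgeR's quasi-likelihood test, 0 of 12640 genes passed an adjusted p of 0.05 in all cells, with 631 genes (4.99%) at an unadjusted p under 0.05 and 3.1% both under it and higher in Pb, against 1.89% lower. DESeq2 called 30 genes (0.175% of 17143) and limma-voom 0. Of the 10 genes, 7 had an unadjusted p under 0.05, all higher in Pb. Without the shared barcodes 7 did, and without the 3 libraries 6 (5.87% of genes tested), again all higher in Pb. The median log2 fold change of the 10 genes was 0.64, against -0.02 over all genes tested.

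Sox10 had 115, 102, 141 and 153 CPM in all cells of Pb F1, F2, M1 and M2, and 89.2, 82.7, 73.1 and 65.7 CPM in those of control F1, F2, M1 and M2. Every Pb mouse lay above every control mouse. The log2 fold change was 0.69 (SE 0.16, unadjusted p = 0.00149, adjusted p = 0.976, edgeR). Sox10 was among the 30 genes called by DESeq2, with an adjusted p of 0.0203, and limma-voom gave an adjusted p of 0.874.

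Enpp6 had 15.5, 16.3, 15.4 and 22.1 CPM in all cells of the 4 Pb mice, and 12.6, 8.36, 10.8 and 10.3 CPM in those of the 4 control mice in the same order. These groups did not overlap either, and Sox10 and Enpp6 were the 2 of the 10 genes of which this held, against 2.37% of all genes tested. The log2 fold change of Enpp6 was 0.71 (SE 0.20, unadjusted p = 0.00593, adjusted p = 0.976, edgeR). In Pb F2, 43 of its 52 Enpp6 UMIs came from 2 committed precursor-like cells.

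The remaining fold changes in all cells were 0.66 for Olig1 (SE 0.22, unadjusted p = 0.0133), 0.63 for Olig2 (SE 0.24, unadjusted p = 0.0274), 0.65 for Sox8 (SE 0.25, unadjusted p = 0.0274), 0.40 for Myrf (SE 0.14, unadjusted p = 0.0211) and 1.38 for Gpr17 (SE 0.53, unadjusted p = 0.0271), all on the log2 scale with an adjusted p of 0.976 (edgeR). In each of these 5 genes the Pb and control mice overlapped. Nkx2-2 had a log2 fold change of 0.40 (SE 0.19, unadjusted p = 0.061) and Tcf7l2 of 0.07 (SE 0.21). Bcas1 had -0.15 (SE 0.33), and 0.38 without the 3 libraries named above. High Bcas1 was part of the choice of these libraries, so the 0.38 is not independent of it.

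The lineage also made up more of the cells in Pb mice, and its part in these fold changes was not tested. Its share was 34.6%, 25.5%, 27.7% and 31.2% of cells in Pb F1, F2, M1 and M2, and 21.3%, 24.3%, 21.5% and 21.1% in control F1, F2, M1 and M2. The groups did not overlap, at 29.7% ± 4.00 against 22.1% ± 1.53 (n = 4 each, SD; p = 0.0286 by the two-sided exact permutation test, the smallest that 4 against 4 mice allow). By UMIs the lineage held 32.5% ± 2.88 in Pb mice against 22.1% ± 2.63 in controls (n = 4 each, SD; p = 0.0286 by the exact permutation test). Dissociated and frozen cells do not give the share in the tissue, and loss of cells before loading cannot be told apart from a difference between animals. With a mitochondrial limit of 10% instead of 20% the groups overlapped in the share of cells, with p = 0.0571, and not in the share of UMIs, with p = 0.0286 (exact permutation test). Without the 3 libraries the difference in cell share was 8.43 percentage points, and every Pb mouse stayed above every control mouse. The exact permutation test gave p = 0.2, the smallest that the mice left allow, so it could not pass the threshold.

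Stage makeup within the lineage differed by less than the spread between mice. Precursor-like and committed cells together were 12.8%, 13.3%, 15% and 7.98% of lineage cells in Pb F1, F2, M1 and M2, and 11.1%, 14.5%, 3.80% and 8.00% in control F1, F2, M1 and M2. This averaged 12.3% ± 3.01 in Pb mice against 9.35% ± 4.55 in controls (n = 4 each, SD; p = 0.314 by the two-sided exact permutation test). Of Oligodendrocyte-like cells, cluster 6 held 15.6% ± 7.23 in Pb mice against 17.0% ± 3.30 in controls (n = 4 each, SD; p = 0.8286 by the exact permutation test). The control share of the precursor stages rested on 3 to 20 cells per mouse.

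Within lineage cells 0 of 8797 genes passed the threshold and 275 (3.13%) had an unadjusted p under 0.05 (edgeR), of the 10 genes 0 did, and DESeq2 and limma-voom also called 0. Without the 3 libraries Olig1 and Sox8 did, 2 of the 10 (7.49% of genes tested), with log2 fold changes of 0.27 and 0.40. This comparison and that of all cells share the same mice and cells. Sox10 had a log2 fold change of 0.13 (SE 0.13) and Enpp6 of 0.13 (SE 0.24) in lineage cells, and the median of the 10 genes was 0.10. Gpr17 had the largest, 0.86 (SE 0.45, unadjusted p = 0.0777, adjusted p = 1.00, edgeR). It was 0.31 without the 3 libraries and ran from 0.42 (without Pb M1) to 1.37 (without control F2) with 1 mouse left out. With no filter on low counts its adjusted p was 0.00918 (edgeR), in a fit that called 29 of 16455 genes. That fit admits many genes with few counts, its p-values may be unreliable, and no statement rests on it. The lineage level of Gpr17 was 68.3, 128, 135 and 47.7 CPM in Pb F1, F2, M1 and M2, and 70.4, 108, 7.76 and 31.0 CPM in control F1, F2, M1 and M2. Control M1, the lowest, had 2 precursor-like cells, and control F1, at 70.4 CPM, had 4.

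In Oligodendrocyte-like cells 9 of the 10 genes could be tested, Gpr17 being too low. Again 0 of 7570 genes passed, 295 (3.9%) had an unadjusted p under 0.05 and 0 of the 9 genes did (edgeR), while DESeq2 called 1 gene, none of the 10, and limma-voom 0. Sox10 had 270, 291, 351 and 388 CPM in the Pb mice and 323, 266, 290 and 286 CPM in the control mice, with overlapping groups and a log2 fold change of 0.15 (SE 0.12). Myrf had 222, 252, 242 and 247 CPM in the Pb mice and 257, 259, 227 and 244 CPM in the control mice, a log2 fold change of -0.05 (SE 0.11). Sox8 had the smallest p of the 9, with a log2 fold change of 0.25 (SE 0.16, unadjusted p = 0.139), and without the 3 libraries it was the 1 of the 10 genes at an unadjusted p under 0.05 (8.94% of genes tested), at 0.45 (SE 0.15, edgeR). The 9 fold changes ran from -0.19 (Enpp6, SE 0.28) to 0.25, with a median of -0.06 against -0.01 over all genes tested, and the groups overlapped for each of the 9, where 1.64% of genes had every Pb mouse above every control mouse and 1.2% every Pb mouse below.

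**Figure D5:**
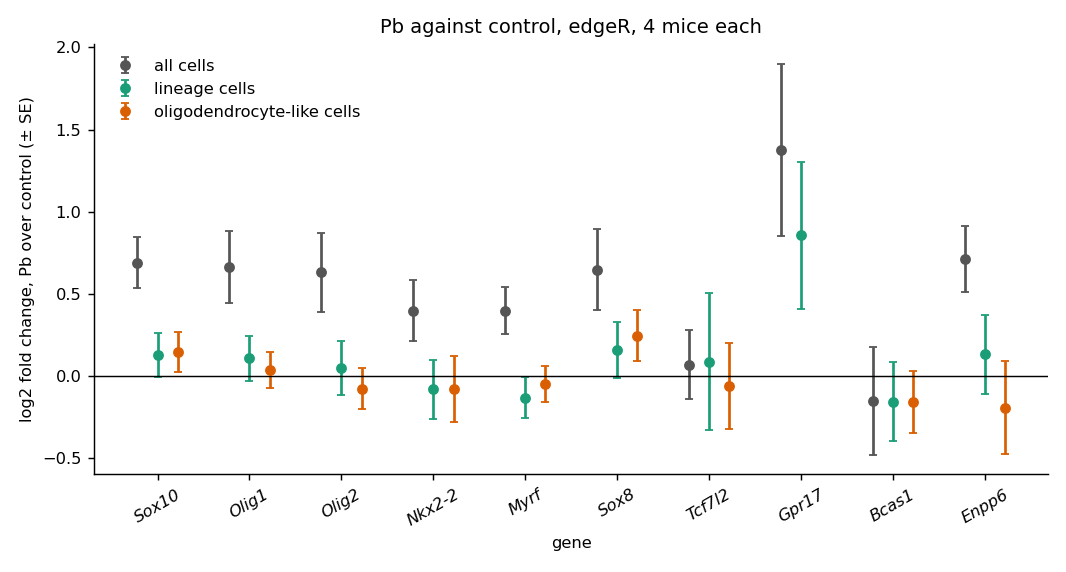
log2 fold change of each of the 10 genes, Pb over control, with its standard error (edgeR, 4 mice per group), in all cells, lineage cells and Oligodendrocyte-like cells; Gpr17 was not tested in Oligodendrocyte-like cells. In all cells 9 of the 10 values are above 0, with Sox10 at 0.69 and Enpp6 at 0.71, and in lineage cells these 2 are at 0.13 each.

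In precursor-like cells only 2 control mice had at least 5 cells, so the smallest two-sided exact permutation p is 0.133. The p-values of the 10 genes ran from 0.267 to 1. Olig1 averaged 3796 ± 868 CPM in Pb mice (SD, n = 4) against 2835 ± 983 CPM in controls (SD, n = 2), with an exact permutation p of 0.267. Gpr17 averaged 443 ± 114 CPM in Pb mice against 431 ± 252 CPM in controls. With this number of mice no difference in precursor-like cells could pass the threshold.

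In cells outside the lineage 9 of the 10 genes had the higher mean in Pb mice, Bcas1 being the exception. The share of all genes with the higher mean in Pb was not computed there. None of the 10 passed the adjusted threshold in Microglia-like or Endothelial-like cells (edgeR). At an unadjusted p under 0.05 were 2 of 5 tested genes in Microglia-like cells (4.29% of genes tested), Sox10 and Myrf, and 2 of 5 in Endothelial-like cells (4.3% of genes tested), Sox10 and Olig1. In Microglia-like cells Sox10 averaged 29.9 ± 8.11 CPM in Pb mice against 15.4 ± 4.32 CPM in controls (n = 4 each, SD), a log2 fold change of 1.01 (SE 0.28, unadjusted p = 0.0023, adjusted p = 0.728, edgeR). In Endothelial-like cells it was 33.8, 24.1, 37.3 and 38.6 CPM in Pb F1, F2, M1 and M2, and 12.5, 19.2, 17.8 and 16.1 CPM in control F1, F2, M1 and M2. Every Pb mouse lay above every control mouse there, as for 1.45% of genes tested, with a log2 fold change of 0.98 (SE 0.28, unadjusted p = 0.00243, adjusted p = 1.00, edgeR). Without the 3 libraries the Sox10 values were 1.26 in Microglia-like and 1.01 in Endothelial-like cells. Not every class outside the lineage had more Sox10 in Pb mice. In Astrocyte-like cells it averaged 44.9 ± 20.8 CPM in Pb mice against 19.1 ± 15.2 CPM in controls (SD, n = 4 each). In Cajal-Retzius-like cells it averaged 19.5 ± 5.46 CPM in Pb mice against 37.9 ± 24.5 CPM in controls (SD, n = 4 and 3). Myrf averaged 16.2 ± 6.37 CPM in Pb mice against 8.15 ± 3.19 CPM in controls in Microglia-like cells (n = 4 each, SD), with overlapping groups and a log2 fold change of 1.18 (SE 0.41, unadjusted p = 0.0106, edgeR). Olig1 had a log2 fold change of 0.65 (SE 0.27, unadjusted p = 0.0278, edgeR) in Endothelial-like cells.

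In Microglia-like and Endothelial-like cells Sox10 stood at 7.34% and 8.09% of its Oligodendrocyte-like mean. Summed over 10 myelin markers, none of which was at 0, cells outside the lineage held 4572 to 6309 CPM in Pb mice against 3700 to 8884 CPM in controls (exact permutation p = 0.514, n = 4 each). The mean of this sum was lower in Pb mice, at 5331 ± 750 CPM against 6228 ± 2611 CPM (SD), although 8 of the 10 markers had the higher mean in Pb. Summed over 8 precursor markers, none at 0, the range was 83.1 to 235 CPM in Pb mice against 78.3 to 136 CPM in controls (exact permutation p = 0.371, n = 4 each). The mean was 150 ± 63.7 CPM in Pb mice against 114 ± 25.1 CPM (SD), and 8 of the 8 markers had the higher mean in Pb. The share of all genes with the higher mean in Pb was not computed, so these counts of markers have no background. The part of carried-over lineage RNA in the Sox10 difference was not tested.

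Further genes of the lineage were read from 5 lists. In all cells, where 3.1% of genes had an unadjusted p under 0.05 in the higher direction, 10 of 18 myelin and mature genes did (median log2 fold change 0.45), against 0 of 18 precursor genes (median 0.58), 2 of 12 tested committed-stage genes, 4 of 29 tested further regulators and 6 of 22 receptors and signals. In the lower direction, where 1.89% of genes lay, the counts were 0, 0, 0, 0 and 2. In Oligodendrocyte-like cells, where 1.51% of genes were higher and 2.39% lower at that p, the counts higher in Pb were 1 of 18 myelin, 1 of 4 tested precursor, 0 of 7 committed-stage, 0 of 22 regulator and 0 of 15 receptor genes, and 0 were lower. No gene of any list passed the adjusted threshold (edgeR).

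Among these, Ptgds, a prostaglandin D synthase of mature oligodendrocytes, had 14542 ± 2869 CPM in Pb and 11663 ± 796 CPM in control Oligodendrocyte-like cells (SD, n = 4 each), a log2 fold change of 0.30 (SE 0.11, unadjusted p = 0.0144, edgeR). Id2, an inhibitor of bHLH factors such as Olig2, had 52.6 ± 18.3 CPM in Pb mice against 35.1 ± 15.1 CPM in controls, a log2 fold change of 0.56 (SE 0.21, unadjusted p = 0.0174, edgeR). Opalin, a myelin membrane glycoprotein, had -0.23 (SE 0.11), and Mbp had -0.23 (SE 0.13). For the remaining lists the genes with the smallest p were Tmem163 (-0.23, SE 0.20), Nfib (-0.26, SE 0.17) and Adgrg1 (-0.33, SE 0.20) on the log2 scale.

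Sex gave no call among the 10 genes. In male against female mice 5, 5 and 4 genes passed in all cells (0.0396%), lineage cells (0.0568%) and Oligodendrocyte-like cells (0.0528%), and 0 of the 10 were among them (edgeR). Enpp6 in Oligodendrocyte-like cells had 44.7, 48.2, 45.1 and 55.6 CPM in the males Pb M1, Pb M2, control M1 and control M2, and 38.8, 9.49, 29.7 and 34.9 CPM in the females Pb F1, Pb F2, control F1 and control F2. Every male lay above every female, which held for 1 of the 9 tested genes and for 1.31% of all genes tested. The log2 fold change of Enpp6 was 0.66 (SE 0.28, unadjusted p = 0.0316, adjusted p = 1.00, edgeR), 0.39 without Pb F2 and 1.12 without Pb F1.

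The exposure difference itself was compared between males and females by an interaction term, and 0 genes passed in all cells, lineage cells or Oligodendrocyte-like cells (edgeR). At an unadjusted p under 0.05 were 3 of the 10 genes in all cells (2.81% of genes tested), 1 in lineage cells (2.92%) and 1 of 9 in Oligodendrocyte-like cells (2.47%). Gpr17 had an interaction of 2.30 (SE 0.76, unadjusted p = 0.0151) in all cells and 2.01 (SE 0.78, unadjusted p = 0.0245) in lineage cells on the log2 scale, with an adjusted p of 1.00 (edgeR). In lineage cells the interaction ran from 1.10 (without Pb M1) to 3.40 (without control M2) with 1 mouse left out. With no filter on low counts its adjusted p was 0.00139 (edgeR), in a fit that called 58 of 16455 genes. The p-values of that fit may be unreliable, and no statement rests on them. The all-cell level of Gpr17 was 49.4 and 19.6 CPM in Pb males against 2.71 and 7.28 CPM in control males, and 28.1 and 38.0 CPM in Pb females against 17.1 and 32.7 CPM in control females. The control males had 2 and 8 precursor-like cells, and control F1, a female at 17.1 CPM, had 4. The part of precursor numbers in the interaction was not tested.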

How the data were processed

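The authors' deposited table holds raw UMI counts per gene and cell, whole numbers with unequal totals. The submitters' processing notes name Cell Ranger, Seurat and mm10; for the annotation and the authors' filters the sources used here give nothing. The deposited cells had at least 999 genes and 1137 UMIs, so the table had been filtered before deposit, and shallower cells cannot be counted.

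Cells over 20% mitochondrial UMIs (53) and doublets called by Scrublet (33, or 0.628%) were removed. Clustering (scanpy 1.11.5, Python 3.11.15: 2000 variable genes without the 10 genes, 30 components, 15 neighbours, Leiden resolution 1) gave 25 clusters, named from markers; clusters with markers of more than 1 type were split again, and 1 was left unnamed by hand. That rule, the naming thresholds and the members and lists were chosen with earlier results of these data known. For UMI shares, 90 Pb and 44 control cells too shallow for 2000 UMIs were left out.

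UMIs were summed per mouse and class (at least 10 cells, 3 mice per group) and tested with edgeR 4.0.16 (R 4.3.3; TMM, filterByExpr, sex as covariate, Benjamini-Hochberg, threshold 0.05), a fit tested on simulated data. Alternatives were DESeq2 1.42.0, limma 3.58.1, other scaling and filters, other cell filters and clusterings, and left-out libraries. Levels are CPM of a class. Shares used two-sided exact permutation tests over 70 arrangements. Precision follows the UMIs per mouse; intervals cover counting error only. Named genes were the 10, those with the smallest p per list in Oligodendrocyte-like cells and the nearest by correlation over clusters. Same-numbered Pb and control mice did not deviate together (0 of 4 correlations over 0.1), so numbers were not taken as pairs.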

Additional observations from a re-analysis of the deposited data

Results flagged for a closer look

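In 3 of 66 groups of 4 mice a single mouse stood apart from the others by Dixon's test of its gap to the nearest mouse over the group's range; chance alone would give about 3.3. Enpp6 in all cells was 22.1 CPM in Pb M2, against 15.4 to 16.3 CPM in the other Pb mice. Enpp6 in Oligodendrocyte-like cells was 9.49 CPM in Pb F2, from 7 UMIs, against 38.8 to 48.2 CPM in the other Pb mice; cluster 6, the cluster with most Enpp6, held 4.85% of the Oligodendrocyte-like cells of Pb F2 and 17.8% to 20.5% of those of the other Pb mice. The lineage made up 24.3% of cells in control F2, against 21.1% to 21.5% in the other control mice.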

How the results depend on the processing

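Of 1230 values under an alternative, 1120 were counted as unchanged. For 666 log2 fold changes, 9 lineage shares and 14 precursor shares this meant the same direction and side of the threshold. The rest, such as 164 counts of called genes and 236 mean CPM values, have no direction and were counted when close to the main value. The alternatives that left out shared barcodes, the 3 libraries, the cluster of 1 mouse or all but the largest Oligodendrocyte-like cluster were chosen after seeing the data. With no filter on low counts, Pb against control called 29 genes in lineage, 23 in Oligodendrocyte-like, 60 in Microglia-like and 28 in Endothelial-like cells, male against female 53 in lineage and 34 in Oligodendrocyte-like cells, and the interaction 58 and 41, with Gpr17 among those of both lineage comparisons; these fits admit many genes with few counts, their p-values may be unreliable, and no statement rests on them. DESeq2 called 30 in all cells and 1 in Oligodendrocyte-like cells for Pb against control. Without the 3 libraries 1 gene was called in lineage and 2 in Oligodendrocyte-like cells, and in the largest cluster alone 2. Leaving out 1 mouse at a time gave for Pb against control 0 to 0 calls in all cells, 0 to 3 in Oligodendrocyte-like, 0 to 5 in Microglia-like and 0 to 1 in Endothelial-like cells, for male against female 3 to 6 in all cells and 4 to 8 in lineage and in Oligodendrocyte-like cells, and for the interaction 0 to 1 in both.

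The lineage share of cells differed by 7.21 percentage points with a mitochondrial limit of 10% (exact permutation p = 0.0571 with all 8 mice), 8.43 without the 3 libraries and 6.06 to 9.09 without 1 mouse, and that of UMIs by 10.9 without the 3 libraries and 9.54 to 11.7 without 1 mouse. With a mouse left out, p was 0.0571 each time, the smallest that 3 against 4 mice allow. The precursor share of the lineage differed by 0.67 to 4.63 percentage points.

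Some log2 fold changes turned sign. Without the 3 libraries they were 0.38 for Bcas1 in all cells and 0.094 in lineage cells, -0.0019 for Tcf7l2 in lineage cells, and 0.050 for Olig2 and 0.061 for Nkx2-2 in Oligodendrocyte-like cells. With doublets kept, lineage cells gave -0.0017 for Tcf7l2 and -0.039 for Enpp6. In the largest Oligodendrocyte-like cluster Olig1 was -0.011 and Tcf7l2 0.065; without the cluster of 1 mouse Myrf was 0.037 and Tcf7l2 0.10. Without 1 mouse, Tcf7l2 ran from -0.046 to 0.26 in all cells, -0.27 to 0.55 in lineage and -0.24 to 0.16 in Oligodendrocyte-like cells; Bcas1 from -0.41 to 0.23, -0.39 to 0.15 and -0.36 to 0.041 in the same order. Likewise Olig2 (-0.12 to 0.19) and Enpp6 (-0.10 to 0.28) crossed 0 in lineage cells, and Olig1 (-0.036 to 0.13), Nkx2-2 (-0.22 to 0.022) and Myrf (-0.083 to 0.01) in Oligodendrocyte-like cells.

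With the replicate number as a block, 0 genes were called in all cells and Tcf7l2 in Oligodendrocyte-like cells was 0.0061; the same-number correlations were -0.357 to 0.011 in all cells, and 0 mice correlated best with their own number. Depth limits the committed class (12 cells) and precursor-like cells of control mice (2 to 20 cells).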
